A study of Equus caballus with 25 samples.

Results

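GADD45A and MAPK8 are the members of the stress signaling pathway described here, and each was measured by 1 probe among the 7238 transcript probes of a custom equine array. They were chosen by name: a probe belonged to a gene if the study's gene tables pair its Ensembl transcript identifier with GADD45A (ENSECAT00000015222) or MAPK8 (ENSECAT00000008865). Those tables hold only transcripts that the study called changed in these same horses, and it reported both genes as higher in severe asthma. The calls of both genes below are therefore not independent evidence. RNA from bronchoalveolar lavage (BAL) cells, the free cells washed out of the lower airways, was hybridized for 25 horses with 1 array per horse: 7 clinically healthy control horses (CTRL), 10 horses with mild equine asthma (MEA, labelled IAD, inflammatory airway disease) and 8 horses with severe equine asthma (SEA, labelled RAO, recurrent airway obstruction). These were client-owned horses with natural disease and no experimental treatment. By the study's description the SEA horses were older than the others and the CTRL horses were all standardbreds, while most diseased horses were saddle horses, so that severe asthma and age cannot be told apart and breed differs in part with diagnosis. The study asked how gene expression in BAL cells differs between these diagnoses.

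GADD45A (growth arrest and DNA damage inducible alpha) is a small nuclear protein without enzyme activity of its own. It is induced by DNA damage, by p53 and by other stresses, and GADD45 proteins bind MTK1 (MAP3K4), a kinase at the head of the cascades that end in the stress-activated kinases p38 and JNK. MAPK8 is JNK1, a terminal kinase of that cascade, which phosphorylates c-Jun and other transcription factors of the AP-1 group and is itself regulated mainly by phosphorylation, which an array of transcripts does not measure. By the study's cytology the inflammatory BAL cells of these horses were mainly macrophages in CTRL and MEA and mainly neutrophils in SEA. Lymphocytes were few in all 3 groups.

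The probes are shown because every value below rests on them, 2 spots of 1 sequence for each gene. Both were 60 bases long, and the first 30 bases of the GADD45A probe and the whole MAPK8 probe read as follows, 5′ to 3′.
GADD45A: gtagtttgggtatttttggtttttatgccc
MAPK8: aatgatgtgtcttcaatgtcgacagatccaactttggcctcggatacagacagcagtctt
The GADD45A probe had 35% G and C over its 60 bases and the MAPK8 probe 45%, which equals the median of all transcript probes. Neither shared a run of 15 bases, on either strand, with any other transcript probe (0 others for both genes). RefSeq lists 1 transcript for horse GADD45A and 38 for MAPK8, and which of the 38 the MAPK8 probe reads was not analysed here.

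The 2 transcripts lay at opposite ends of those that passed the filter on low values. Values are log2 normalized intensities, in which 1 unit is a doubling, and since brightness depends on the probe they are compared between horses and not between genes. The mean of GADD45A over the 25 arrays was 12.45, above that of 95.5% of the 4930 transcripts that passed this filter. The mean of MAPK8 was 3.87, above that of 1.01% of them. Transcripts among the 7238 on the array that the filter removed as dim do not enter these shares. GADD45A passed the filter with no array below its limit of 4.5. MAPK8 was below 4.5 on 18 arrays and would have been left out at 19, so that it passed by 1 array. The arrays below 4.5 were all 7 of CTRL, 7 of MEA and 4 of SEA. MAPK8 therefore passed only through horses with asthma, the groups in which it was higher. The methods do not give the scale of the 4.5 limit, which was taken here as log2. With no filter the MAPK8 calls were as given below. The scanner software called GADD45A well above background on both spots of every array, and neither gene had a saturated spot.

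GADD45A was higher in SEA than in CTRL horses. In CTRL the log2 intensity had a lowest value of 9.79, a median of 10.89 and a highest of 13.11. In MEA these values were 10.36, 11.43 and 16.05. In SEA they were 10.43, 14.15 and 16.05. Of the 8 SEA horses, 6 lay above every CTRL horse, SEA 4 (13.07) lay just under the highest CTRL horse, and SEA 1 (10.43) lay inside the CTRL range. The order of the group means was SEA (14.06 ± 1.78, SD, n = 8), MEA (11.96 ± 1.81, SD, n = 10) and CTRL (11.31 ± 1.40, SD, n = 7).

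The difference between SEA and CTRL was 2.75 on the log2 scale (SE 0.76), a 6.74-fold difference with a 95% interval from 2.22- to 20.5-fold, and its adjusted p was 0.0185 in limma over the 4930 transcripts. It was the 19th largest rise of this comparison, in which 16% of all tested transcripts were called higher, that is, with an adjusted p below 0.1 and at least a 1.5-fold change. Between SEA and MEA the difference was 2.10 (SE 0.78, adjusted p = 0.153) and was not called. That call rested on single horses: without MEA 3 it was 2.55 with an adjusted p of 0.0361, and without SEA 1 it was 2.62 with an adjusted p of 0.0515, both of which would be called (adjusted p from 0.0361 to 0.283 over the fits that left out 1 horse). MEA and CTRL differed by 0.65 (SE 0.74, adjusted p = 0.611), with a 95% interval from -0.89 to 2.20, which includes no difference as well as a rise of several-fold.

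The arrays lay on 4 slides that each held all 3 groups, and the GADD45A difference between SEA and CTRL did not have 1 sign on all of them. It was 3.45 on slide 2, 4.28 on slide 3 and 0.99 on slide 4, and on slide 1, where SEA 1 was the only SEA horse, it was -1.05. With slide as a block in the limma fit the call was kept. In RNA from a mixed lavage, more cells of a type that expresses a gene and more of its RNA per cell cannot be told apart.

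**Figure D1:**
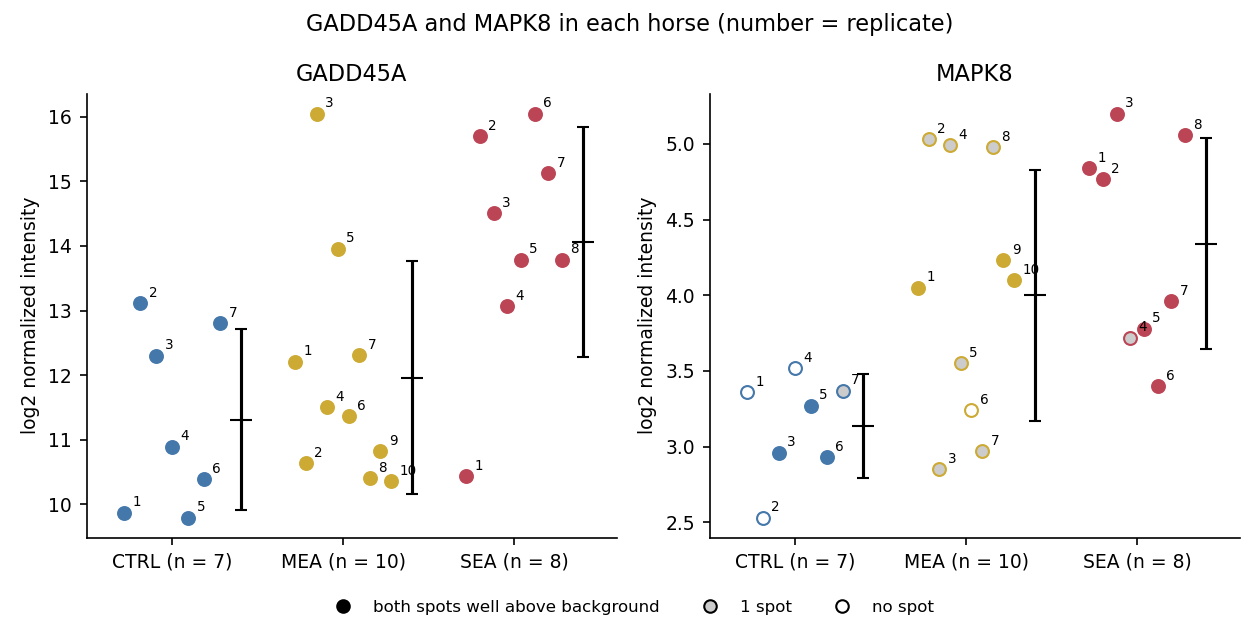
Log2 normalized intensity of GADD45A (left) and MAPK8 (right) in each of the 25 horses, with the replicate number beside each point, the fill showing how many of the probe's 2 spots the scanner software called well above background, and the mean ± SD of each group in black. In GADD45A, 6 of 8 SEA horses lie above all CTRL horses and SEA 1, MEA 3 and MEA 5 lie apart from most of their groups, while in MAPK8 7 of 8 SEA horses lie above all CTRL horses on a range of less than 3 log2 units. The vertical axes do not start at 0.

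MAPK8 was also higher in SEA than in CTRL horses, by less and close to the limit of detection. In CTRL the log2 intensity had a lowest value of 2.53, a median of 3.27 and a highest of 3.52. In MEA these values were 2.85, 4.07 and 5.03. In SEA they were 3.40, 4.36 and 5.20. Of the SEA horses, 7 of 8 lay above every CTRL horse, and the exception was SEA 6 (3.40), the SEA horse with the most GADD45A. The MEA horses spread over nearly the whole range, 7 of 10 above every CTRL horse and MEA 3 (2.85) below all but 1 of them.

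The difference between SEA and CTRL was 1.21 (SE 0.28, adjusted p = 0.0123 in limma), a 2.31-fold difference with a 95% interval from 1.52- to 3.51-fold. Between MEA and CTRL it was 0.86 (SE 0.32, 95% interval from 0.19 to 1.53, adjusted p = 0.117) and was not called, where 3.25% of all tested transcripts were called higher. SEA and MEA differed by 0.34 (SE 0.35, adjusted p = 0.588), with a 95% interval from -0.39 to 1.08, where 1.44% were called higher. Without MEA 3, MEA 6 or MEA 7 the MEA difference was called, with an adjusted p of 0.0713, 0.0923 and 0.0523 (adjusted p from 0.0523 to 0.197 over the fits that left out 1 horse). The SEA difference was positive on each slide (1.89, 0.84, 1.09 and 1.69 on slides 1 to 4), with a lone SEA horse on slides 1 and 4. Its size depended on how background was handled: with a normexp correction, which here adds a constant to every spot and so narrows differences between dim ones, it was 0.15 with an adjusted p of 0.049 and fell under the 1.5-fold limit. Both asthma groups were set against the same 7 CTRL horses.

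The scanner software flags a spot as well above background when its signal exceeds the local background by a fixed multiple of the background's SD, so that the flag is set within each array before any normalization. For MAPK8 both spots were flagged on CTRL 3, CTRL 5 and CTRL 6, 1 spot on CTRL 7, and no spot on CTRL 1, CTRL 2 and CTRL 4. Of the MEA horses, 3 had both spots flagged, 6 had 1 and MEA 6 had 0. Of the SEA horses, 7 had both spots flagged and SEA 4 had 1. In all, 93.8% of the SEA spots were flagged, beside 60% of the MEA spots and 50% of the CTRL spots.

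The mean number of flagged spots per array was 1.88 in SEA and 1 in CTRL, which did not pass a two-sided exact permutation test (p = 0.0886, adjusted over the 3 comparisons 0.133). Against MEA the difference of 0.68 spots had an exact permutation p of 0.0405, adjusted 0.121, and without SEA 4 the adjusted value was 0.037. MEA and CTRL had an exact permutation p of 0.839. The flag and the level did not order the CTRL horses alike: CTRL 4, the highest (3.52), had no flagged spot, and CTRL 6 (2.93) and CTRL 3 (2.96), lower than 4 of the others, had both. The share of all spots flagged on an array ranged from 63.5% to 90.4% in CTRL. It ranged from 58.2% to 84.1% in MEA and from 66.6% to 90.8% in SEA. In CTRL the MAPK8 flags went with this share, which was 84.3%, 86.2% and 90.4% on CTRL 3, CTRL 5 and CTRL 6. It was 77.7% on CTRL 7 and 66.2%, 63.5% and 68.1% on CTRL 1, CTRL 2 and CTRL 4. The flag counts were not adjusted for this share. With the share as a covariate, the difference in MAPK8 level between SEA and CTRL was still called.

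The 2 spots also show how firmly each level is known. Their median difference was 0.17 for GADD45A and 0.27 for MAPK8, beside 0.16 over all tested transcripts. For MAPK8 this is close to the whole difference between SEA and MEA. The MAPK8 spots lay more than 1 log2 unit apart on SEA 4 (2.41 and 5.04), MEA 3 (1.76 and 3.95), MEA 8 (5.61 and 4.35) and MEA 5 (4.07 and 3.02), gaps larger than the MAPK8 difference between MEA and CTRL.

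**Figure D2:**
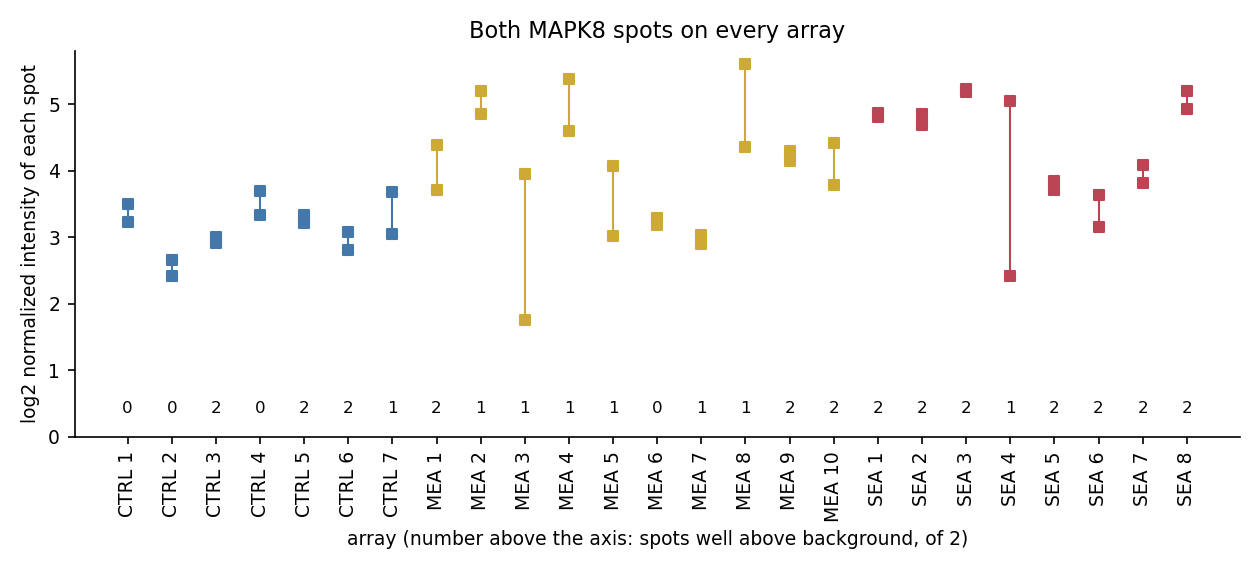
Log2 normalized intensity of both MAPK8 spots on each of the 25 arrays (squares joined by a line), with the number of spots flagged well above background printed above the axis. The spots lie furthest apart on SEA 4 (2.41 and 5.04), and on CTRL 1, CTRL 2, CTRL 4 and MEA 6 no spot was flagged.

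GADD45A varied widely inside every group. Its SD in SEA was 1.78, larger than that of 96.9% of the tested transcripts in those 8 horses, for which the median SD was 0.56. It was as wide in MEA (1.81, above 99.0% of the tested transcripts) and somewhat less so in CTRL horses (1.40, above 97.5%). From SEA 1 to SEA 6 the intensity spanned 5.62 log2 units, a 49.0-fold range. SEA 1 made much of that spread, since the SD of the other SEA horses was 1.098. The other 7 ran from SEA 4 (13.07) through SEA 5 and SEA 8 (both 13.79), SEA 3 (14.51), SEA 7 (15.13) and SEA 2 (15.70) to SEA 6 (16.05). MEA 3 (16.05) read as high as the highest SEA horse and MEA 5 (13.96) within the SEA range, whereas the other 8 MEA horses lay between 10.36 and 12.31, inside the CTRL range.

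MAPK8 had an SD of 0.34 among the CTRL horses, 0.83 among the MEA horses and 0.70 among the SEA horses, the last larger than that of 63.1% of the tested transcripts. Both genes rose in SEA against CTRL, yet inside the groups they did not rise together. Among the CTRL horses Pearson's r between them was -0.49 (n = 7, exact permutation p = 0.255), among the MEA horses -0.68 (n = 10, permutation p = 0.0231) and among the SEA horses -0.28 (n = 8, exact permutation p = 0.539). In the same order Spearman's rho was -0.21 (exact permutation p = 0.662), -0.68 (permutation p = 0.0358) and -0.29 (exact permutation p = 0.501). Adjusted over the 3 groups, the MEA values became 0.0692 for r and 0.107 for rho by permutation, and no group passed 0.05. Without the 2 horses farthest from the GADD45A median, r stayed negative in CTRL (-0.42) and MEA (-0.57) and was 0.34 in SEA.

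Transcripts that follow GADD45A were sought with Pearson's r over the deviations of the 25 arrays from their group means, so that a shared difference between the groups does not enter. The points share their arrays and the normalization, and r is given as a description. The highest was TREM1, a receptor that amplifies inflammatory responses of neutrophils and monocytes, whose 2 transcripts had r = 0.99 and 0.98. The next were CCRL2, a chemokine receptor-like protein of activated myeloid cells (0.97), PLAUR, the urokinase receptor (0.97), CSF3R, the receptor for granulocyte colony-stimulating factor (0.96), CSRNP1, a nuclear protein (0.95), TG, the symbol of thyroglobulin (0.95), G0S2, an inhibitor of lipolysis (0.95), KIAA0226L (0.95) and SAMSN1, an adaptor protein (0.95). All 10 are named transcripts, of which the gene tables hold only those that the study called changed in these horses. In SEA against CTRL 9 of the 10 were called higher, beside 16% of all tested and 42.2% of the 1683 named and tested transcripts, and KIAA0226L was not (2.06, SE 1.02, adjusted p = 0.146 in limma).

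Over all tested transcripts the median r with GADD45A was 0.01, and 14.3% had an r above 0.5. The lowest were SMARCA2, a chromatin remodelling ATPase (-0.86), and the transcripts ENSECAT00000020741 (-0.85) and ENSECAT00000007162 (-0.84), which the gene tables do not name. Inside the groups, TREM1 (ENSECAT00000018405) had r = 0.99 in CTRL, 0.98 in MEA and 0.99 in SEA. Without MEA 3 and SEA 1 its r over all groups was 0.97. In SEA 1, each of the 10 transcripts had its lowest value among the SEA horses (rank 1 of 8). TREM1 and the other transcripts were chosen by r over these same arrays. All of these values therefore follow largely from the choice and add no separate evidence. MAPK8 had an r of -0.51 with GADD45A by this measure.

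**Figure D3:**
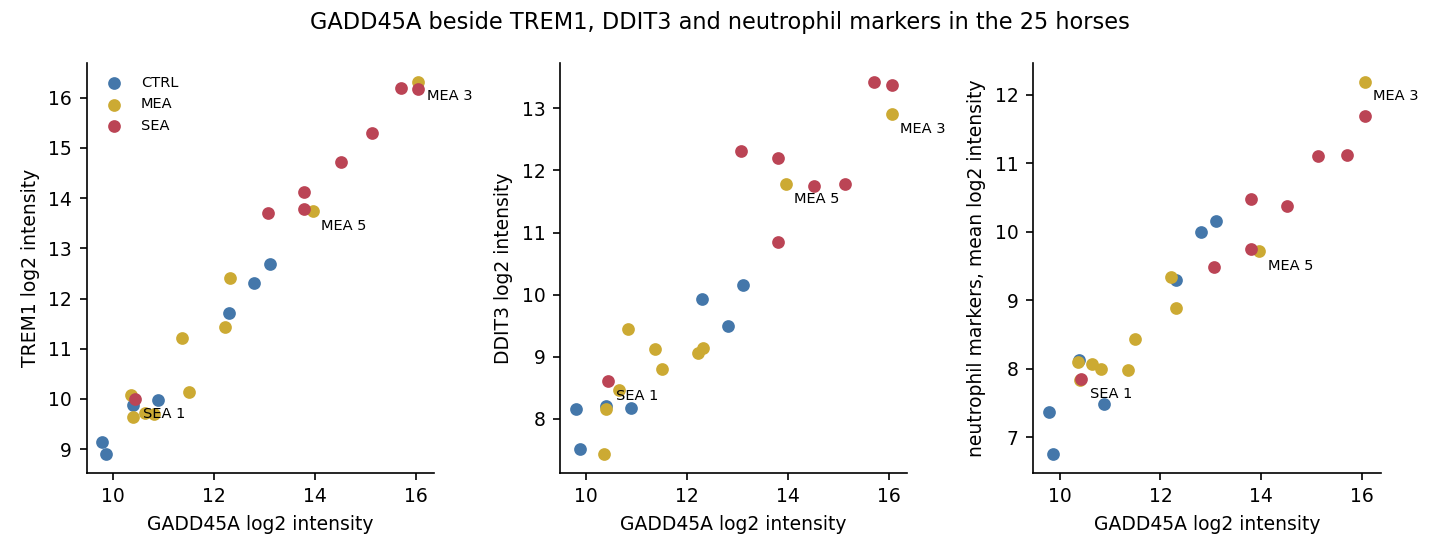
Log2 intensity of TREM1 (ENSECAT00000018405, left), DDIT3 (middle) and the mean of 3 neutrophil marker transcripts (right) against that of GADD45A in the 25 horses, coloured by group. SEA 1 lies with the CTRL horses and MEA 3 with the highest SEA horses in all 3 plots. TREM1 is shown because its r with GADD45A was the highest over these same horses.

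The mean of the neutrophil marker transcripts moved with GADD45A, whereas the means for macrophages and airway epithelium did so in some groups or in the opposite direction. Like the pathway genes below, markers are named only where the study called them changed in these horses. The neutrophil markers reported here were 3 named and tested transcripts (CSF3R, NCF1 and MMP9), and 3 of 3 were called higher in SEA than in CTRL (16% of all tested and 42.2% of named transcripts). Their mean log2 intensity ranged from 6.75 to 10.15 in CTRL, from 7.83 to 12.19 in MEA and from 7.85 to 11.69 in SEA, the lowest SEA value being that of SEA 1 and the highest MEA value that of MEA 3. Over deviations from the group means it had r = 0.96 with GADD45A (0.96 in CTRL, 0.97 in MEA and 0.98 in SEA) and -0.47 with MAPK8. These levels are not cell counts and did not order the horses by them: in the BAL cytology neutrophils made up most inflammatory cells of every SEA horse, SEA 1 included, with the smallest share in SEA 6, the horse with the most GADD45A, and they were few in MEA 3 and CTRL 2. All 3 had a spot well above background on every array. CSF3R is also 1 of the 10 transcripts named above as most like GADD45A. It varied more than NCF1 and MMP9 (SD in SEA 2.16, 0.37 and 1.26) and so weighs most in the mean. The r of NCF1 or MMP9 alone with GADD45A is not given here.

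The 6 macrophage marker transcripts, 5 of them above background on every array, gave means from 8.34 to 10.11 in CTRL, from 8.57 to 10.41 in MEA and from 8.78 to 10.20 in SEA, with r = -0.55 for GADD45A and 0.64 for MAPK8. That r was 0.06 for GADD45A in CTRL, -0.76 in MEA and -0.72 in SEA, and -0.10, 0.83 and 0.74 for MAPK8. Of these transcripts CD68 and TREM2 were called higher in SEA than in CTRL and the other 4 were not, MARCO differing by -1.12, and both SIGLEC1 transcripts were called higher in MEA than in CTRL. The 6 airway epithelium marker transcripts, which include EPCAM and KRT18 and of which 5 were above background on every array, were called lower than in CTRL in SEA (6 of 6, beside 16.7% of all tested and 44.1% of named transcripts) and mostly in MEA (4 of 6, beside 6.53% and 18.1%). Their mean ranged from 8.30 to 10.30 in CTRL, from 6.94 to 9.46 in MEA and from 4.90 to 8.64 in SEA, where SEA 1 was the lowest. Their r was 0.29 for GADD45A (-0.17 in CTRL, -0.0052 in MEA and 0.70 in SEA) and -0.44 for MAPK8. No listed lymphocyte or mast cell marker was named. The part of these cell types in the levels of GADD45A and MAPK8 was not tested.

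The other named genes of the pathway are read against a particular background, because the gene tables name only transcripts that the study called changed in these same horses. Of the 1683 named and tested transcripts, 42.2% were called higher and 44.1% lower in SEA than in CTRL, beside 16% and 16.7% of all 4930. Of the 41 tested transcripts in the 7 pathway lists, leaving out GADD45A and MAPK8, 35 were called higher, 4 lower and 2 were not called. In MEA against CTRL 5 were called higher and 2 lower, where the shares were 7.07% and 18.1% of the named and 3.25% and 6.53% of all transcripts. In SEA against MEA 11 were called higher and 0 lower, where they were 3.86% and 1.72% of the named and 1.44% and 0.791% of all. Without SEA 1, 36 of the 41 were called higher in SEA than in CTRL, and with slide as a block 33 were. The listing of a gene is not independent evidence of its direction. Transcripts of DUSP15 and IER2 that were too dim for the filter are not counted.

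Of the GADD45 family, GADD45B, a paralog induced by inflammatory cytokines and TGF-beta, was higher in SEA than in CTRL. It had a lowest, median and highest value of 8.35, 8.99 and 11.24 in CTRL, of 9.05, 10.24 and 12.86 in MEA and of 9.20, 11.72 and 13.13 in SEA. Its difference was 2.08 (SE 0.58, adjusted p = 0.0193 in limma), the lowest SEA horse was again SEA 1, and its r with GADD45A was 0.90. GADD45G, the third paralog, was not called in any comparison. It differed by 0.56 between SEA and CTRL (SE 0.27, adjusted p = 0.132), and its r with GADD45A was 0.11. The median difference of the 3 members, GADD45A included, is that of GADD45B itself (2.08) and adds no separate value for the family. Over all tested transcripts the median was -0.01, and over the named ones -0.39.

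In the list of kinases and adaptors placed upstream of JNK and p38 from general knowledge, 11 transcripts of 9 genes were tested. Whether each of them acts on JNK or p38 in these cells, or mainly on other pathways, was not tested. Of these, 9 were called higher in SEA than in CTRL (16% of all tested and 42.2% of named transcripts) and 2 lower (16.7% and 44.1%). Their median difference was 1.01. Among those called higher, MAP3K14 and MAP4K4 count with 2 transcripts each. The largest rise was that of MAP3K8 (TPL2), a kinase that acts below Toll-like receptors, which differed by 1.72 (SE 0.38, adjusted p = 0.00977) and was called higher in MEA as well (1.299, SE 0.40, adjusted p = 0.0694). MAP3K5 (ASK1), which responds to oxidative stress and activates JNK and p38, rose by 0.82 (SE 0.29, adjusted p = 0.0452). The largest fall was that of MAPK8IP1 (JIP1), the scaffold that holds JNK together with its upstream kinases. It fell by 1.58 in SEA (SE 0.44, adjusted p = 0.0187) and by 1.68 in MEA (SE 0.36, adjusted p = 0.021). MAP3K13 (LZK), a kinase that activates JNK, fell by 1.47 in SEA (SE 0.34, adjusted p = 0.0112). MAPK8 was the only gene of the MAP kinase list itself that was named, so that the other JNK, p38 and ERK kinases were not analysed here.

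The dual specificity phosphatases remove the activating phosphates from MAP kinases. Of 5 tested, 4 were called higher (16% of all tested and 42.2% of named transcripts) and 1 lower (16.7% and 44.1%), with a median of 1.36. DUSP16, which acts on JNK and p38, rose by 1.70 (SE 0.51, adjusted p = 0.0248), and DUSP1, an early response gene, by 1.45 (SE 0.45, adjusted p = 0.0282). Both followed GADD45A, with r = 0.89 and 0.87. DUSP14 fell by 1.67 in SEA (SE 0.42, adjusted p = 0.0152) and by 1.82 in MEA (SE 0.30, adjusted p = 0.00849).

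Of the transcription factors that MAP kinases act on or induce, 10 of 10 tested transcripts were called higher in SEA than in CTRL. The share was 16% of all tested and 42.2% of named transcripts, and the median difference of the 10 was 1.36. ELK3, a factor of the ETS family, rose most, by 1.95 (SE 0.29, adjusted p = 0.00263), and 8 of 8 SEA horses lay above every CTRL horse, as did 1.56% of all tested transcripts. JUN, the classic substrate of JNK, rose by 0.91 (SE 0.24, adjusted p = 0.0171). EGR1, an immediate early gene, rose by 1.84 against CTRL (SE 0.45, adjusted p = 0.0133) and by 1.99 against MEA (SE 0.37, adjusted p = 0.0542). ATF2, another substrate of JNK and p38, was called higher in both SEA (0.99, SE 0.25, adjusted p = 0.015) and MEA (0.88, SE 0.24, adjusted p = 0.0418), and its r with GADD45A was 0.01.

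The integrated stress response, which slows translation under endoplasmic reticulum stress or amino acid shortage, held the largest rise of all lists. DDIT3 (CHOP), its proapoptotic factor, had a lowest, median and highest value of 7.52, 8.21 and 10.16 in CTRL, of 7.43, 9.09 and 12.91 in MEA and of 8.61, 11.99 and 13.43 in SEA. It rose by 2.98 (SE 0.63, adjusted p = 0.00812), in 7 of 8 SEA horses above every CTRL horse, and its r with GADD45A was 0.92, the highest of the 42 pathway transcripts. TRIB3, a pseudokinase induced by DDIT3, rose by 2.28 (SE 0.45, adjusted p = 0.00579) and ATF5 by 1.60 (SE 0.25, adjusted p = 0.00282), with r of 0.15 and 0.06. In all, 7 of 8 transcripts of this list were called higher (16% of all tested and 42.2% of named transcripts) and none lower (16.7% and 44.1%). The exception was EIF2AK2 (PKR), an interferon-induced kinase, which was called higher in MEA (0.83, SE 0.25, adjusted p = 0.0643) and not in SEA (0.43, SE 0.25, adjusted p = 0.217), although the difference between SEA and MEA did not pass (adjusted p = 0.377).

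GADD45A itself belongs to the p53 pathway, of whose list 4 of 5 tested transcripts were called higher and 1 lower. The shares were 16% and 16.7% of all tested and 42.2% and 44.1% of named transcripts. FAS counts with 2 of the transcripts called higher. They differed from CTRL by 1.21 and 0.92 in SEA and by 1.32 and 1.23 in MEA, called each time. Their r with GADD45A was 0.35 and 0.38. PLK3, a stress-responsive kinase, rose by 1.85 (SE 0.41, adjusted p = 0.00969) and followed GADD45A with r = 0.88. MDM2, the ligase that degrades p53 and is a p53 target like GADD45A, rose by 0.86 with an r of -0.20. PERP, a p53 target that also belongs to the desmosomes of epithelia, fell by 2.01 (SE 0.48, adjusted p = 0.0124), beside the fall of the epithelium markers given above. Over the 42 pathway transcripts, MAPK8 included, r with GADD45A had a median of 0.60, beside 0.01 over all tested transcripts. Of the 42, 25 lay above 0.5, beside 14.3% of all tested transcripts, and 6 lay below 0.

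**Figure D4:**
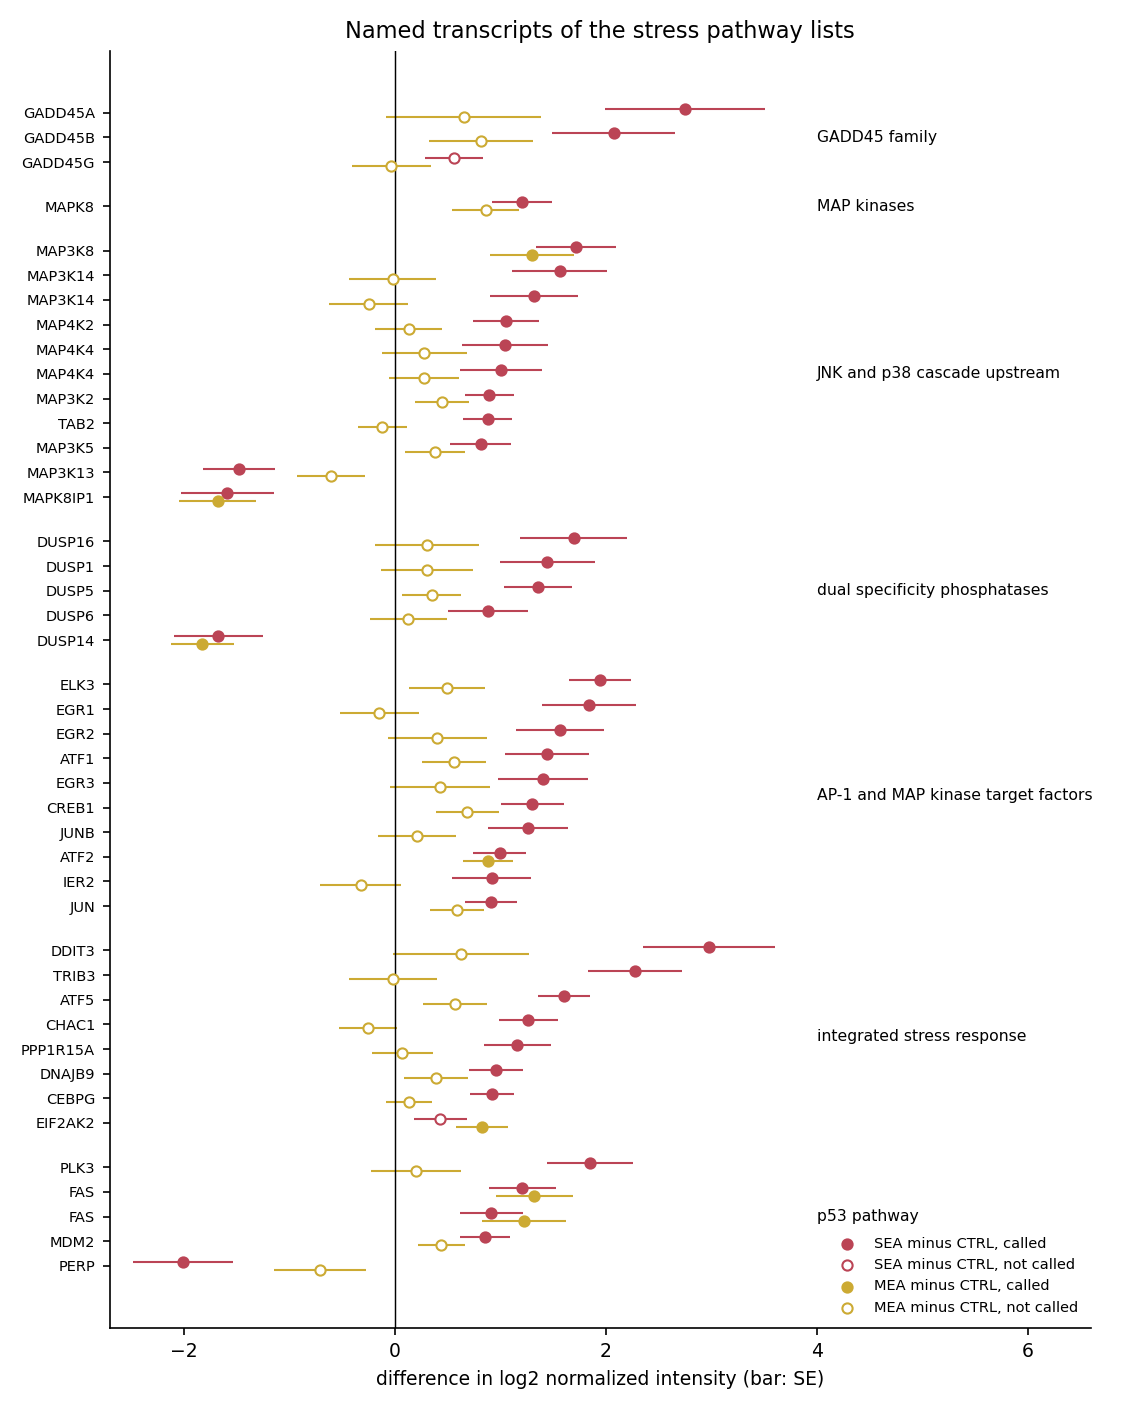
Difference in log2 normalized intensity from CTRL for the named and tested transcripts of the 7 pathway lists, in SEA (red) and MEA (yellow), with bars of 1 SE and filled points for transcripts called at an adjusted p below 0.1 and at least a 1.5-fold change. DDIT3 and GADD45A show the largest rises in SEA, PERP the largest fall, and 2 transcripts, MAPK8IP1 and DUSP14, are called lower in both asthma groups.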

How the data were processed

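RNA from BAL cells of 25 horses was measured on Agilent one-color arrays, 1 array per horse. The authors deposited for each array the spot intensities of Agilent Feature Extraction 9.5.1.1, background-corrected but left unscaled from array to array, and 1 table of intensities after cyclic loess over the 25 arrays. Per the labels, R 2.11.1 was used. The flags of each spot (well above background, positive and significant, saturated, outlier) were deposited in the same files, and the unit of both kinds of value was checked. No 2 arrays held identical values.

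Log2 intensities were normalized by cyclic loess (span 0.7, 3 iterations) in R 4.3.3 with limma 3.58.1, and each probe's value is the mean of its 2 spots without those flagged as outliers (0.0456%). The intensity filter removed transcripts that were under 4.5 on 19 or more arrays. Each comparison was fitted with limma to the arrays of its 2 groups, with Benjamini-Hochberg adjustment over 4930 transcripts, and the steps were tested on simulated data. Flag counts and correlations were tested by permutation (scipy 1.17.1), exact except for the correlation in MEA (1e+05 resamples). Arrays have no sequencing depth, and the number of arrays limits the precision.

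Symbols came from the study's supplementary gene tables, in which 1864 transcripts have 1 symbol, all called changed by the study. The values in those tables were not used. The reference table held 0 equine Ensembl transcript identifiers, so that no positions are given. The members, the gene lists (from general knowledge) and the tests were chosen with earlier results of these data known. Genes were named by a rule: GADD45A and MAPK8 in full, the largest called rise and fall of each pathway list in SEA against CTRL and other list members, the 10 transcripts most like GADD45A and the 3 least like it. Some listed marker genes are not reported here and were left out of the marker means. Alternatives were 4 other normalizations, 2 other filters, a rank sum test, trend and robust settings, array weights, 1 fit of all arrays, slide, scan date and replicate number as blocks, the share of flagged spots as a covariate, each spot alone and each horse left out.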

Additional observations from a re-analysis of the deposited data

How the results depend on the processing

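GADD45A between SEA and CTRL was called under every alternative fitted to all horses of the groups, and ranged from 2.47 to 3.27 when 1 horse was left out, called each time. Within slides, which have no test, it was -1.05 on slide 1 and 0.99 on slide 4, the slides with a lone SEA horse each. MAPK8 between SEA and CTRL ranged from 1.08 to 1.34 and was lost to the fold limit with normexp correction (0.149); on slide 1 it was 1.89. MAPK8 between MEA and CTRL (0.75 to 0.99 with 1 horse left out) was called with array weights (1.06, adjusted p = 0.0104) and on the second spot only (0.98), and was 1.59 on slide 1. GADD45A between SEA and MEA (1.81 to 2.62) was called with array weights (2.89, adjusted p = 0.00318), and was -0.99 on slide 1 and 4.27 on slide 3. GADD45A between MEA and CTRL (0.20 to 0.95) was 2.39 on slide 2, and MAPK8 between SEA and MEA (0.22 to 0.48) was 1.23 on slide 4. The mean number of flagged MAPK8 spots differed by 0.71 to 1.04 between SEA and CTRL, by 0.03 to 0.37 between MEA and CTRL and by 0.54 to 0.80 between SEA and MEA with 1 horse left out. With the flag for positive and significant spots the difference of SEA from MEA was -0.13, and counted as arrays with both spots flagged that of MEA from CTRL was -0.13. The correlation of both genes ranged from -0.75 to -0.11 in CTRL, from -0.77 to -0.56 in MEA and from -0.41 to -0.04 in SEA with 1 horse left out. In MEA it passed 0.05 with the authors' normalized values (-0.71, adjusted permutation p = 0.0474) and without MEA 6 (adjusted permutation p = 0.0357), and in SEA it was 0.48 with 75th percentile scaling. Scaling to the 75th percentile gave no value for MAPK8 in the group comparisons, since its filter left the transcript out. Of the 10 transcripts most like GADD45A, 8 to 10 were shared under the alternatives. The cause of these changes was not tested. The counts without SEA 1 and with the slide as a block over the pathway lists were chosen after seeing the data.

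Replicate numbers only name different horses, and the deviations of same-numbered arrays had correlations from -0.44 to 0.41, so that they pair nothing. With the replicate number as a block, GADD45A differed by 2.79 (SEA and CTRL), 1.27 (MEA and CTRL) and 1.76 (SEA and MEA), and MAPK8 by 1.104, 0.68 and 0.38, and no call changed.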
